A study of Mus musculus with 10 samples.

Results

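The genes of the sphingosine 1-phosphate (S1P) and lysophosphatidic acid (LPA) receptors were followed in dorsal root ganglia (DRGs), where the somata of sensory neurons sit, of mouse embryos with and without the kinase gene Lkb1. There were 10 of these receptor genes, S1pr1 to S1pr5, Lpar1 to Lpar4 and Lpar6, among 19938 genes with a measured level. Each was read from 1 probe set of the array (10405179 for S1pr3), the only one whose annotation names that gene alone. The set was taken because S1pr3 stood out in this same comparison, so the values of the receptors below describe the Lkb1 KO and WT samples. No p is printed for them. Which of them a fit over all genes calls is reported beside the share of all genes called, and nothing is read from it.

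DRGs were collected at E13.5 from 5 Lkb1 KO and 5 WT samples, each a pool from 2 embryos and read on an array of its own, so that n is the number of pools. In Lkb1 KO embryos a Wnt1-Cre transgene deleted floxed Lkb1 (gene symbol Stk11), and WT samples came from wild-type littermates. The mice were of mixed genetic background according to the methods. Wnt1-Cre acts in the neural crest, from which both the neurons and the glia of the DRG arise, as well as in dorsal neural tube and midbrain, whereas vessels, macrophages and most of the surrounding mesenchyme of the trunk have other origins and keep the gene. The labels do not give the sex of the embryos. The values are log2 expression levels from the RMA procedure, which corrects background, brings the arrays to 1 distribution and summarizes the probes of a set. They allow each probe set to be compared between samples, while levels of different genes are not on a common scale. Stk11 averaged 8.70 ± 0.22 in WT pools and 7.78 ± 0.11 in Lkb1 KO pools (SD, n = 5 each), with every Lkb1 KO value below every WT value (log2 difference -0.92, standard error 0.09, adjusted p = 0.000115 from limma).

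S1P and LPA are lysophospholipids that act outside the cell as ligands of G protein-coupled receptors. S1P receptors couple, depending on the member, to Gi, Gq and G12/13 proteins and from there to the cytoskeleton, and they are best known for the guidance of lymphocytes, the stability of vessels and contraction of mural cells, while in sensory ganglia S1P acts on the excitability of neurons. LPA receptors belong to a pair of distantly related sequence groups, one close to the S1P receptors (Lpar1 to Lpar3) and one close to purine receptors (Lpar4 and Lpar6). LPA is known for the retraction of neurites and for effects on Schwann cells.

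S1pr3, a receptor that couples to Gi, Gq and G12/13, lay at 9.37, 9.13, 9.11, 9.01 and 8.99 on the log2 scale in WT replicates 1 to 5. In Lkb1 KO replicates 1 to 5 it lay at 10.52, 10.38, 10.73, 10.36 and 10.14. The lowest Lkb1 KO pool was thus above the highest WT pool. The means were 9.12 ± 0.15 for WT and 10.43 ± 0.22 for Lkb1 KO (SD, n = 5 each), a 2.47-fold higher level with a 95% confidence interval of 2.13 to 2.87. Between pools of the same replicate number the log2 difference ran from 1.15 to 1.62. By the size of its rise S1pr3 ranked 7 among all 19938 genes. As these are bulk samples, more cells of a type that carries S1pr3 and more S1pr3 RNA per cell cannot be told apart.

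**Figure D1:**
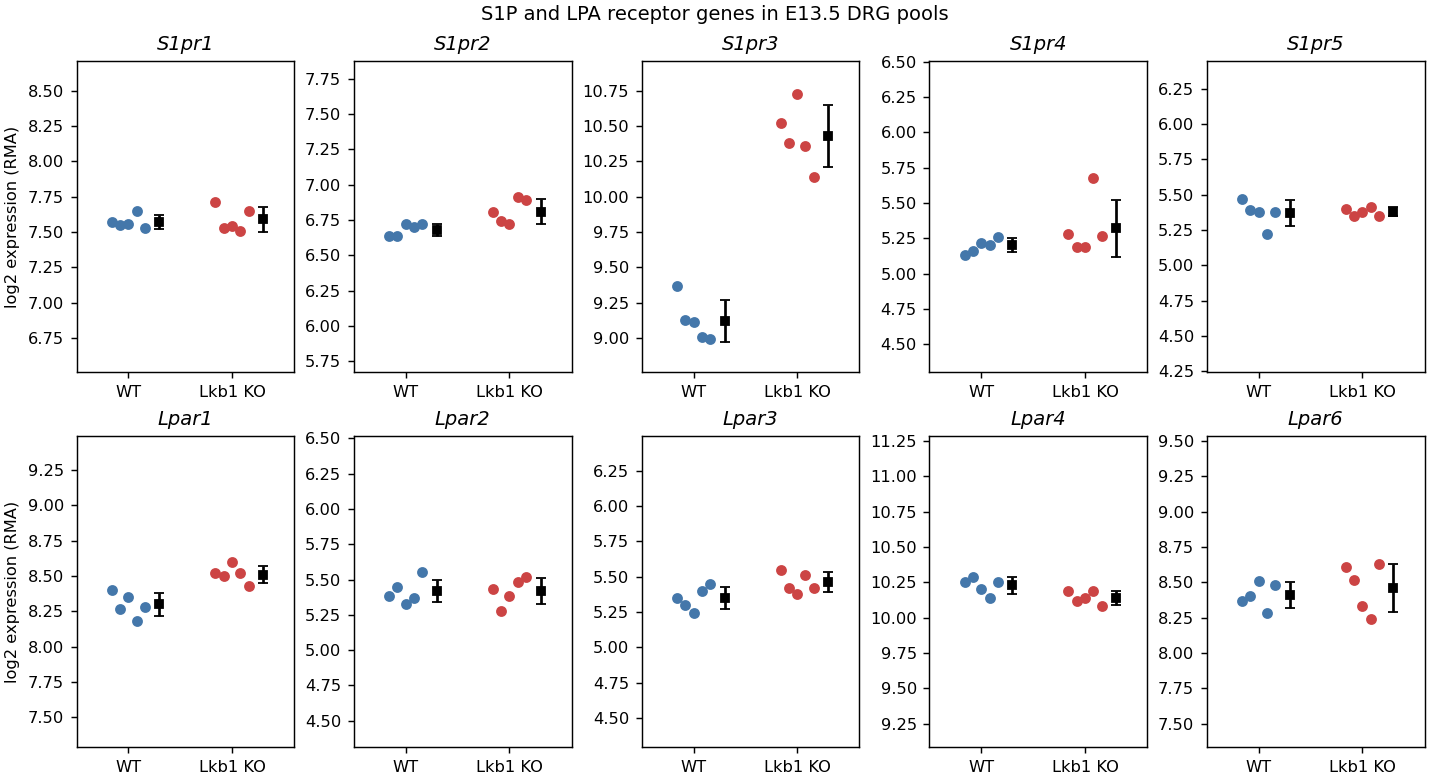
Log2 expression of each S1P and LPA receptor gene in the WT (blue) and Lkb1 KO (red) pools, 1 point per pool, with the mean and SD in black; every panel spans the same number of log2 units, and heights are not comparable between panels. S1pr3 lies between 8.99 and 9.37 in WT and between 10.14 and 10.73 in Lkb1 KO, Lpar1 shows a narrow gap, and in the other 8 genes the groups overlap.

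The other S1P receptors did not show such a gap. S1pr1, the Gi-coupled receptor of endothelium and lymphocytes, was at 7.57, 7.55, 7.56, 7.65 and 7.53 in WT and at 7.71, 7.53, 7.54, 7.51 and 7.65 in Lkb1 KO, and its log2 difference was 0.02 with a 95% confidence interval of -0.08 to 0.12. The values of the groups lay within one another. S1pr2, which couples mainly to G12/13, was at 6.64, 6.64, 6.72, 6.70 and 6.72 in WT and at 6.81, 6.74, 6.72, 6.91 and 6.89 in Lkb1 KO. It was higher in Lkb1 KO in all 5 replicate numbers, by 0.13 on average (95% confidence interval 0.03 to 0.23), but the groups met at 6.72. S1pr4, known from blood cells, was at 5.13 to 5.26 in WT and at 5.28, 5.19, 5.19, 5.68 and 5.27 in Lkb1 KO, so that its log2 difference of 0.13 (95% confidence interval -0.05 to 0.30) came largely from replicate 4. S1pr5, known from oligodendrocytes and natural killer cells, was at 5.22 to 5.47 in WT and 5.35 to 5.41 in Lkb1 KO, with a log2 difference of 0.01 (95% confidence interval -0.09 to 0.11).

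Among the LPA receptors of the group close to the S1P receptors, Lpar1 alone had groups that did not overlap. Lpar1, the LPA receptor known from neural progenitors, Schwann cells and fibroblasts, was at 8.40, 8.27, 8.35, 8.18 and 8.28 in WT and at 8.52, 8.50, 8.60, 8.52 and 8.43 in Lkb1 KO. The gap between the highest WT and the lowest Lkb1 KO pool was small beside the range within either group. The means were 8.30 ± 0.08 and 8.51 ± 0.06 (SD, n = 5 each), and the level in Lkb1 KO was 1.16-fold that in WT, against 2.47-fold for S1pr3. Lpar2 was at 5.33 to 5.55 in WT and 5.28 to 5.52 in Lkb1 KO, with a log2 difference of 0.00 (95% confidence interval -0.11 to 0.12). Lpar3 was at 5.24 to 5.45 in WT and 5.38 to 5.55 in Lkb1 KO, with a log2 difference of 0.11 (95% confidence interval 0.00 to 0.21) and overlapping groups.

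Lpar4 and Lpar6, the LPA receptors close to purine receptors, had overlapping groups as well. Lpar4 was at 10.25, 10.29, 10.20, 10.14 and 10.25 in WT and at 10.19, 10.12, 10.14, 10.19 and 10.08 in Lkb1 KO. It was the only receptor with a lower mean in Lkb1 KO, by a log2 difference of -0.08 (95% confidence interval -0.17 to 0.00), and 1 of the 5 replicate numbers went the other way. Lpar6 was at 8.28 to 8.51 in WT and 8.24 to 8.63 in Lkb1 KO, with a log2 difference of 0.05 (95% confidence interval -0.11 to 0.22). Lpar6 lies within the retinoblastoma gene Rb1 in RefSeq, and the positions of the probes were not used here. Rb1, named after its values were seen, had a log2 difference of -0.20 (adjusted p = 0.0621 from limma, and 0.0155 with the replicate number as a block). Its part in the Lpar6 values was not tested.

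**Figure D2:**
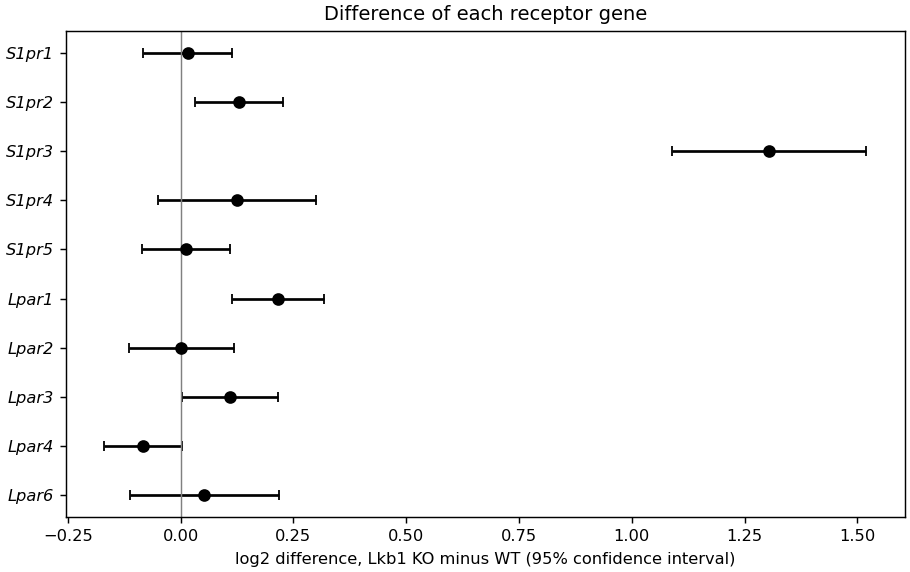
Log2 difference between Lkb1 KO and WT (5 pools each) for each receptor gene, with its 95% confidence interval from the fit over all genes; the grey line marks 0. The interval of S1pr3 runs from 1.09 to 1.52, and the other differences lie between -0.08 and 0.22.

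The 9 receptors other than S1pr3 had log2 differences from -0.08 to 0.22 with a median of 0.05. S1pr3 was chosen for its larger difference, so its distance from them is a description. Of the 10 receptors 9 had a difference above 0, and 6 had an interval that spans 0. An interval that leaves out 0 corresponds to an unadjusted p under 0.05 in limma, which 15.3% of all genes had. The median of the 10 receptors was 0.08. That of all 19938 genes was 0.00, with about as many genes above 0 as below. In the limma fit over all genes (Benjamini-Hochberg adjusted p under 0.05), 2 receptors were called higher, S1pr3 and Lpar1, where 2.49% of all genes were called higher, and 0 were called lower, where the share was 1.38% (3.87% in either direction). The same 2 receptors had all Lkb1 KO values above all WT values, which held for 3.09% of all genes, while 2.24% had all of them below and 5.34% were apart in either direction. Blocking on the replicate number left the same 2 receptors called, against 3.59% of all genes called higher and 2.83% called lower. Since the receptors were chosen on this contrast, nothing is read from these shares. Lpar1 was not called by the one-way analysis of variance, at an adjusted p under 0.01, or when WT pool 2 or 4, or Lkb1 KO pool 2 or 3, was left out, where its log2 difference was between 0.19 and 0.22. The table gives no detection call, and S1pr4, S1pr5, Lpar2 and Lpar3 lay between 5.13 and 5.68, close to 5.18, below which the mean level of 30% of all genes lay. A difference in these 4 genes may therefore not be visible on this array.

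The pools differed in sex-linked transcripts. Eif2s3y, on the Y chromosome, was near background (4.66 and 4.90) in a pair of Lkb1 KO pools, numbers 2 and 5, and reached 9.75 or more elsewhere. Xist, which marks the second X chromosome of females, was high (11.70 to 12.37) in those 2 pools, in Lkb1 KO pools 1 and 4 and in WT pools 2 and 4. Among pools with Eif2s3y and little Xist, S1pr3 was at 8.99 to 9.37 in 3 WT pools and at 10.73 in 1 Lkb1 KO pool. Among pools with both, S1pr3 was at 9.01 to 9.13 in 2 WT pools and at 10.36 to 10.52 in 2 Lkb1 KO pools, a log2 difference of 1.37. Lkb1 KO pools 5 and 2, with little Eif2s3y, had S1pr3 values of 10.14 and 10.38, and no WT pool was of that kind. Lpar1 differed by 0.25 in the pools with little Xist and by 0.29 in those with both. Lpar4, which lies on the X chromosome, differed by -0.09 and -0.02 in the same strata.

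The start regions of S1pr3 and S1pr2 are shown because S1pr3 carries the difference and S1pr2 is the S1P receptor with the next largest one. Each window runs from 250 bases before to 50 bases after the annotated start (RefSeq, GRCm38.p6), at chr13:51408368-51408667 on the plus strand for S1pr3 and chr9:20976744-20977043 on the minus strand for S1pr2, and is written 5′ to 3′ in the sense of the gene. Capitals mark a GC box (GGGCGG), the core of sites for Sp-family factors, and, in S1pr2, a cAMP response element (TGACGTCA), the site of CREB, whose coactivators are phosphorylated by kinases that Lkb1 activates.
S1pr3: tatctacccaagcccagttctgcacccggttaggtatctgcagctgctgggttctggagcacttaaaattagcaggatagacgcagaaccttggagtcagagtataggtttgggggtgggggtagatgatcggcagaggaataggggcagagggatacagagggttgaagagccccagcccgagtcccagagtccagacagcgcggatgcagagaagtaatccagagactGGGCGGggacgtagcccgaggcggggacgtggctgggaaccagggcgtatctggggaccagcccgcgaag
S1pr2: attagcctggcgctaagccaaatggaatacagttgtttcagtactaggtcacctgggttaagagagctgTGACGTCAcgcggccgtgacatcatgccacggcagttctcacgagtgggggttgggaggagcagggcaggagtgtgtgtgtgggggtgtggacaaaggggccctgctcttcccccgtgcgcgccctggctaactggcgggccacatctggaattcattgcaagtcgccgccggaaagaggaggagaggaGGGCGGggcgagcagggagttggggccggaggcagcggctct

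In S1pr3 the GC box started 20 bases before the annotated start. In S1pr2 the cAMP response element started 181 bases before it and the GC box 8 bases after it. A window was at hand for 9 of the 10 receptor genes, all but S1pr1. These 9 genes had 11 windows, as a gene can have more than 1 start. On either strand, 8 of the 11 windows held a GC box, in 7 genes (S1pr2, S1pr3, S1pr5 and Lpar1 to Lpar4), as did 35.7% of the 32851 windows of all genes. The full cAMP response element was found in 1 of the 11, that of S1pr2, and in 1.79% of all windows, and its shorter form TGACG, which the full element contains, in the same window alone and in 20.8%. These are matches of letters in a window, and binding was not measured. In RefSeq the long non-coding RNA Gm32834 overlaps S1pr3 and had no value here, and probe positions and strand were not used.

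The enzymes and carriers that make, break down and move S1P were measured for 18 of the 19 genes listed. By limma 0 were called higher and 1 lower (0 and 5 at an unadjusted p under 0.05, and 0 in the analysis of variance), where 2.49% of all genes were called higher, 1.38% lower and 15.3% had an unadjusted p under 0.05. The median log2 difference was 0.00, as over all genes. The one called was Mfsd2b, the S1P exporter of red cells and platelets, at 6.15 ± 0.07 in WT and 5.94 ± 0.08 in Lkb1 KO (SD, n = 5 each), with a log2 difference of -0.21 (standard error 0.05, adjusted p = 0.026 from limma). Its adjusted p ranged from 0.015 to 0.114 over the alternatives and was above the threshold without any one of 4 WT and 3 Lkb1 KO pools, among other settings. The S1P phosphatase gene Sgpp2 had a log2 difference of -0.39 and the ceramide synthase gene Cers6 of -0.17, with adjusted p from limma of 0.169 and 0.155. With the replicate number as a block these fell to 0.0042 and 0.0336, and 3 genes of the list were called lower. The ceramide synthase gene Cers4 differed by -0.14 (adjusted p = 0.265 from limma).

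Of the genes for LPA synthesis and the lipid phosphate phosphatase family, 16 of 17 were measured, 0 were called higher and 3 lower by limma (1 and 4 at an unadjusted p under 0.05, and 1 in all in the analysis of variance), beside 2.49% and 1.38% of all genes and 15.3% at the unadjusted p, with a median of -0.04. All 3 belong to the phosphatase-related proteins, neuronal membrane proteins known to act on neurite growth and held to have no phosphatase activity of their own. Plppr5 fell from 7.55 ± 0.14 to 7.08 ± 0.17 (SD, n = 5 each), a log2 difference of -0.47 (adjusted p = 0.00711 from limma). Plppr3 fell from 9.76 ± 0.06 to 9.55 ± 0.05 (adjusted p = 0.0123) and Plppr1 from 10.58 ± 0.03 to 10.40 ± 0.07 (adjusted p = 0.0304), both by limma with n = 5 each. In all 3 genes every Lkb1 KO value lay below every WT value, which held for 2.24% of all genes. The 3 were picked by the call itself, so this adds no support. Pla2g4a, not called (adjusted p = 0.252 from limma), was apart in the other direction, with a log2 difference of 0.08. Plppr1 passed the threshold in 8 of 20 alternatives, with adjusted p from 0.0138 to 0.0868, and Plppr5 missed it in the analysis of variance, with 0.0599. The phosphatase gene Plpp2 differed by -0.17 (adjusted p = 0.222 from limma). The markers of sensory neurons moved with the 3 Plppr genes, with a median log2 difference of -0.19. Their summed level was lower in every Lkb1 KO pool than in any WT pool, and their part in the Plppr differences was not tested.

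**Figure D3:**
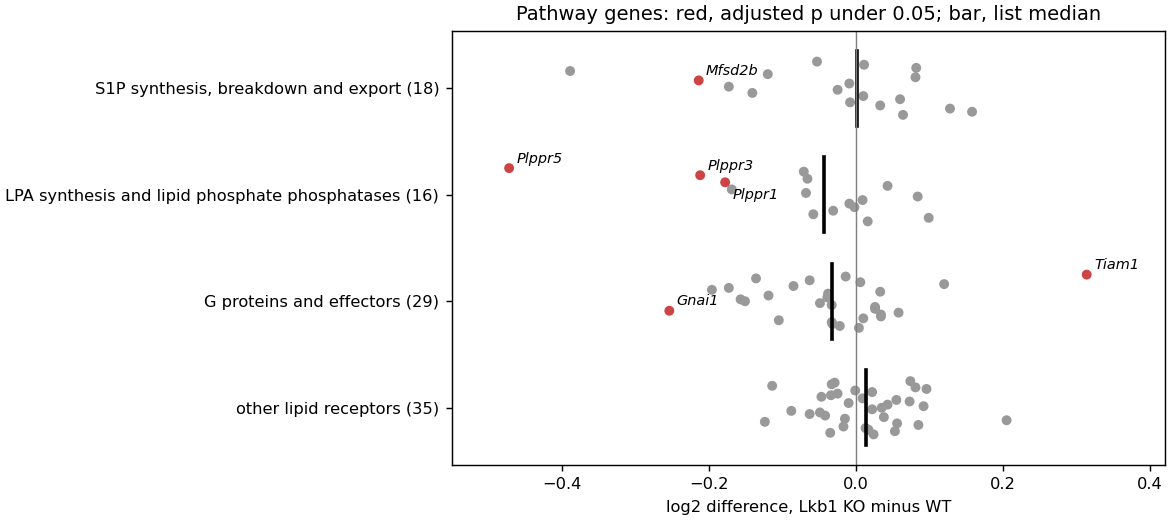
Log2 difference between Lkb1 KO and WT of the genes that surround the receptors, 1 point per gene, in 4 lists with the number measured in parentheses; red points have an adjusted p under 0.05 in limma, and black bars are list medians, all between -0.04 and 0.01. The called genes are Mfsd2b, Plppr1, Plppr3 and Plppr5, Gnai1 on the lower and Tiam1 on the higher side.

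Of the G protein and effector genes through which these receptors signal, 29 of 32 were measured, 1 was called higher and 1 lower by limma (1 and 5 at an unadjusted p under 0.05, and 0 in the analysis of variance), beside 3.87% of all genes called in either direction, with a median of -0.03. Tiam1, an exchange factor for Rac, had a log2 difference of 0.31 (standard error 0.08, adjusted p = 0.0407 from limma). Gnai1, a Gi subunit, had one of -0.25 (standard error 0.06, adjusted p = 0.044 from limma). Each call was lost with a Y-linked covariate, without Lkb1 KO replicates 2 and 5 together and without most single pools, where the adjusted p rose to as much as 0.194 for Tiam1 and 0.181 for Gnai1. Rgs2 and Rgs3, regulators that shorten G protein signals, differed by -0.20 and -0.17 (adjusted p = 0.206 each from limma). Receptors for other lipids, such as prostaglandins, cannabinoids and free fatty acids, were measured for 35 of the 39 genes listed. Of these, limma called 0 in either direction, 3 had an unadjusted p under 0.05 (15.3% of all genes did), and the analysis of variance called 0. Their log2 differences ran from -0.12 to 0.20 with a median of 0.01. The lipid amide receptor gene Gpr119 had the highest, 0.20 (adjusted p = 0.235 from limma, and 0.0126 with the replicate block), while Gper1, Ptger4 and Ptger2 differed by -0.12, -0.11 and 0.10 (adjusted p from limma of 0.329, 0.256 and 0.259). Many genes of this list were dim, down to a mean of 4.42 for Ffar1, where 30% of all genes had a mean below 5.18. A difference in the dim ones may not be visible on this array, so the absence of calls is no sign that they are unchanged.

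Marker genes of the cell types of the ganglion and its surroundings were counted in the same fit. In that fit 2.49% of all genes were called higher and 1.38% lower, and 15.3% had an unadjusted p under 0.05. Of 9 fibroblast and mesenchyme markers 8 were called higher by limma, among them Lum and Col3a1 with log2 differences of 0.50 and 0.44, and the sum of their linear levels was 7301 to 7615 in WT and 9116 to 9464 in Lkb1 KO. The pericyte and smooth muscle sum was 1338 to 1396 in WT and 1439 to 1678 in Lkb1 KO, with 0 of 10 markers called by limma and 2 higher at an unadjusted p under 0.05. The endothelial sum was 5028 to 5316 in WT and 5049 to 6033 in Lkb1 KO, with Cldn5 called higher among 10. The macrophage sum was 726 to 862 in WT and 784 to 834 in Lkb1 KO, with 0 of 8 called and 0 with an unadjusted p under 0.05. Of 9 sensory neuron markers 3 were called lower by limma (5 with the replicate block, and 7 lower at an unadjusted p under 0.05). The sum of the 9 was 15174 to 16625 in WT and 13530 to 14441 in Lkb1 KO. Of 6 Schwann and satellite glia markers 2 were called lower, Cdh19 and Ngfr, with log2 differences of -0.50 and -0.21, while Sox10, Erbb3, Foxd3 and Fabp7 differed by 0.07, 0.07, 0.03 and -0.04 and were not called. The median of this list was -0.01, and its sum was 15733 to 16401 in WT and 14656 to 15908 in Lkb1 KO. Bright markers weigh most in these sums, which are not cell numbers. Fabp7 was the brightest glia marker (WT mean 13.56 on the log2 scale), and Postn the brightest mesenchyme marker (WT mean 11.78). The mean sum in Lkb1 KO was 1.26 times that in WT for the mesenchyme markers and 1.15 times for the mural markers. No marker is at 0 in these values, which have a floor set by background, and the part of these cell types in the S1pr3 and Lpar1 differences was not tested.

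**Figure D4:**
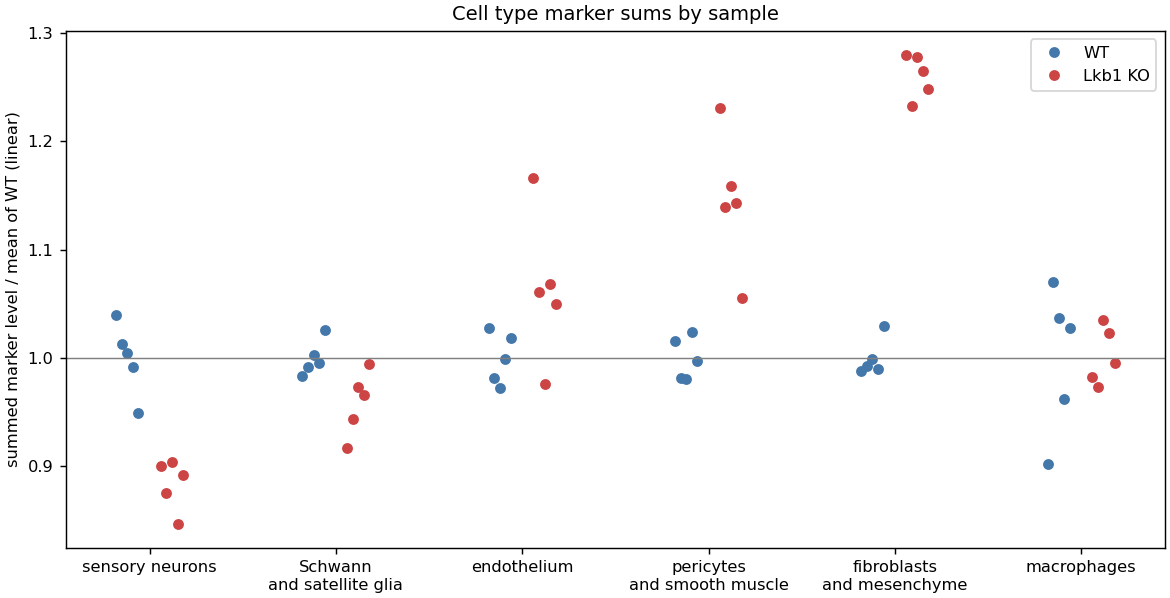
Summed linear level of each cell type's markers in every pool, divided by the mean of the WT pools (grey line at 1), with WT in blue and Lkb1 KO in red. Bright markers weigh most in a sum. The mesenchyme and the pericyte and smooth muscle sums are higher in all Lkb1 KO pools than in any WT pool, with mean ratios of 1.26 and 1.15, the sensory neuron sums are lower in all of them, and the other 3 lists overlap between groups.

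Across the 10 pools, the genes whose values most resembled those of S1pr3 were found by centring each gene on its own WT mean and taking the root mean square difference from S1pr3. The closest was the cAMP phosphodiesterase gene Pde7b, at a distance of 0.131 log2 units. The endocytic adaptor gene Dab2 followed at 0.228 and the elastic fibre gene Fbln5 at 0.235. Sema3g, a secreted semaphorin, the scramblase-family gene Plscr2 and the basement membrane gene Frem2 lay at 0.237, 0.242 and 0.257. All 6 had every Lkb1 KO value above every WT value, with log2 differences of 1.34 for Pde7b, 1.16 for Dab2, 1.53 for Fbln5, 1.17 for Sema3g, 1.03 for Plscr2 and 1.16 for Frem2. The other receptors lay further off, at distances from 0.779 for Lpar1 to 0.993 for Lpar4. By closeness to S1pr3 among all other genes, Lpar1 ranked 466 and Lpar4 ranked 16497. The measure picks genes with a difference like that of S1pr3, so these values are a description and carry no test.

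**Figure D5:**
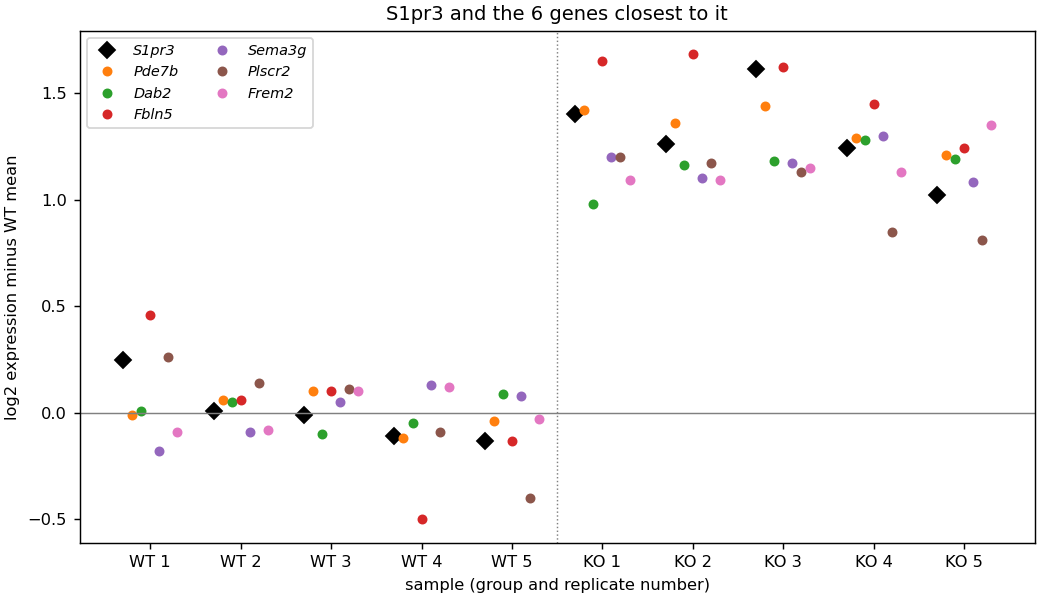
Log2 expression minus the WT mean of the same gene, in each WT and Lkb1 KO (KO) pool, for S1pr3 (black diamonds) and the 6 genes closest to it by root mean square difference (coloured points, set side by side within a pool). Pde7b, at 0.131, follows S1pr3 most closely, and all 7 genes lie higher in each Lkb1 KO pool than in any WT pool.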

How the data were processed

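Expression in DRGs of 5 Lkb1 KO and 5 WT pools was measured on one-colour Affymetrix gene arrays from 250 ng of total RNA. The authors deposited log2 values of 35556 probe sets, made with RMA and Partek 6.6 according to the submitters' processing notes. Scanner files were not used here. RMA shrinks differences of dim probe sets, and the number of arrays sets the precision. Array medians lay between 6.50 and 6.57. Samples were grouped by their labels, which call them biological replicates.

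Of the probe sets, 21789 were annotated with 1 gene, 1621 with several and 12146 with none listed here, and 21698 of the first matched RefSeq (GRCm38.p6). The brightest probe set of each gene was kept, which left 19938 genes with no filter on dim ones. The groups were compared in R 4.3.3 by limma 3.58.1, using lmFit and a two-sided eBayes test without covariates, adjusted by Benjamini-Hochberg over all genes and called under 0.05. The fit was tested on simulated data. Summaries were made in Python 3.11.15 with pandas 2.3.3.

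The receptors and gene lists were chosen with earlier results of these data known. Named were all 10 receptors, up to 4 genes of each pathway list with the smallest unadjusted p, the 6 genes closest to S1pr3, Stk11 and sex-linked genes. Listed genes with no value, not analysed here, include Lpar5, Enpp2, Cers1 and Rock2. Same-numbered WT and Lkb1 KO pools deviated together from their group means (correlations across genes of 0.21 to 0.48, against -0.48 to 0.31 for other numbers), so the number was added as a block in an alternative fit, while the printed values come from the fit without it unless the block is named. The pairing comes from the values, as the labels do not say what a number marks. No arrays were duplicates, since the SD of log2 differences within a group was 0.120 to 0.198. Alternatives were array medians aligned, cyclic loess, an intensity trend with a robust prior, genes in the dimmest 30% dropped, averaged probe sets, every probe set tested, the replicate block, a Y-linked covariate (Eif2s3y and Uty), Lkb1 KO replicates 2 and 5 left out together, a one-way analysis of variance, an adjusted p under 0.01 and each pool left out in turn.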

Additional observations from a re-analysis of the deposited data

Results flagged for a closer look

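Among 114 groups of 5 pools (57 genes), 8 held a pool whose gap to its nearest neighbour passed Dixon's criterion at 0.71 of the group's range, and chance flags about 1 in 20 groups. Of the receptors, S1pr4 was at 5.68 in Lkb1 KO replicate 4 and at 5.19 to 5.28 in the other Lkb1 KO pools. The phosphatase gene Plpp2 was at 8.92 in WT replicate 5 (8.63 to 8.68 in the others) and at 8.72 in Lkb1 KO replicate 1 (8.44 to 8.52). Cers4 was at 9.19 in WT replicate 5 (9.35 to 9.40). Among the markers, Lkb1 KO replicate 1 stood apart in Erbb3, at 9.58 (9.81 to 9.89), and in Kcnj8, at 7.53 (7.07 to 7.18), and WT replicate 1 in Csf1r, at 6.41 (6.53 to 6.57). Frem2, close to S1pr3 in its values, was at 9.26 in Lkb1 KO replicate 5 (at most 9.06 in the others).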

How the results depend on the processing

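The log2 difference of each of the 10 receptors moved by less than the spread between pools (SD) in all 16 settings compared, and that of S1pr3 ran from 1.23 to 1.45. Most of these settings could not have given another outcome. Leaving out 1 of 5 pools cannot move a mean that far. The block leaves the difference as it was, and so does averaging probe sets, as each receptor has 1. Among receptors with a difference near 0, the sign turned negative in 7 settings for Lpar2, 2 for S1pr1, 2 for Lpar6 and 1 for S1pr5. The receptors called higher, 2, became 1 with the one-way analysis of variance and at an adjusted p under 0.01, and 1 to 2 with a pool left out. Over all genes, the 496 called higher became 287 with the Y-linked covariate, 288 without Lkb1 KO replicates 2 and 5 together, 260 with the analysis of variance, 231 at an adjusted p under 0.01 and 333 to 487 with a pool left out. The 275 called lower became 565 with the replicate block, 171 without Lkb1 KO replicates 2 and 5, 127 with the analysis of variance, 82 at an adjusted p under 0.01 and 146 to 347 with a pool left out. In the S1P enzyme and carrier list, 1 called lower became 3 with the replicate block, 0 with the Y-linked covariate, without Lkb1 KO replicates 2 and 5, with the analysis of variance and at an adjusted p under 0.01, and 0 to 1 with a pool left out. In the LPA and phosphatase list, 3 called lower became 1 with the analysis of variance and at an adjusted p under 0.01, and 2 to 3 with a pool left out. In the G protein and effector list, 1 higher and 1 lower each became 0 under the same 4 settings as the S1P list, and 0 to 1 and 0 to 2 with a pool left out. Of the receptors for other lipids, 1 was called higher with the replicate block, against 0. The block, which pairs pools by number, changed no receptor call. The cause of these changes was not tested. Dim genes, such as S1pr4, S1pr5, Lpar2 and Lpar3, are limited by their signal over background.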
